A study of Sus scrofa with 12 samples.

Results

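Small nucleolar RNAs (snoRNAs) were described in the liver of pigs through the probe sets of a whole-transcript array. All transcript clusters, which are the units that the array summarises into 1 value, were taken whose annotation gives the Ensembl biotype snoRNA. There were 359 of these among 25388 clusters. After 3 ribosomal RNA clusters had been left out, 25385 clusters were tested. The study used 12 male crossbred pigs, Pietrain × (German Landrace × German Edelschwein), which were 5 weeks old at the start. Group CON (n = 6) received the NaHCO3 vehicle by mouth, and group PIV (n = 6) received sodium pivalate, a compound that lowers body carnitine, at 30 mg per kg body weight each day for 28 days. Liver RNA of each pig was hybridised to 1 Affymetrix Porcine Gene 1.0 ST array. Values are log2 signals after RMA, the authors' background correction and scaling across the arrays, and FC is the ratio of PIV to CON with a minus sign where group PIV was lower.

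Most snoRNAs lie in introns of host genes and are released from the spliced intron. In the nucleolus, box C/D snoRNAs guide 2′-O-methylation and box H/ACA snoRNAs guide pseudouridylation of ribosomal RNA, each bound to its own set of core proteins. The related scaRNAs guide the same changes on spliceosomal RNAs in Cajal bodies, and a few snoRNAs, such as U3, take part in cleavage of the pre-ribosomal RNA.

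The 359 clusters came from 317 Ensembl transcripts with 165 RNA names on 19 chromosomes. By name, 133 were box C/D, 161 were box H/ACA and 16 were scaRNA. The remaining 49 carried an older name without the box, among them 18 of U13 and 8 of U3, which are box C/D RNAs of pre-ribosomal RNA processing. The annotated lengths ran from 64 to 410 bases with a median of 125. The number of probes ran from 1, for 2 clusters of SNORD14, to 25, for 121 clusters. Because related copies share probes, 121 clusters were marked in the annotation as open to cross-hybridisation, and 78 had a signal identical to that of another locus in all 12 pigs. Hence 319 distinct signals remained. The sources used here do not name the genome build of the annotated coordinates.

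The 12 arrays correlated with each other at r = 0.977 to 0.991 over all clusters, and their medians lay between 4.75 and 4.88. The hepatocyte markers were bright, with a mean of 6 markers between 11.97 and 12.18 in the 12 pigs. In whole tissue, fewer cells of a type and less RNA per cell cannot be told apart. The arrays were numbered from 1 to 6 in group CON and from 7 to 12 in group PIV, so that array order and treatment cannot be told apart.

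The mean signal of the snoRNA clusters ran from 1.06 to 12.49, with a median of 5.08 against 4.82 over all clusters tested. In all, 88 clusters lay under 3, and 44 lay at 9 or over. Signals of different clusters rest on different probes and were not read as amounts of RNA, so the bands of signal only sort the clusters from dim to bright. The signal with the highest mean was SNORA48, an H/ACA RNA inside EIF4A1, with 12.36, 12.51 and 12.62 as the lowest, median and highest value in group CON and 12.39, 12.50 and 12.56 in group PIV. Both groups covered the same narrow range, and the log2 difference was -0.0016 ± 0.07 (SE, n = 6 per group). A pair of box C/D signals named Z195/SNORD33/SNORD32, which lie inside RPL13A on chromosome 6 and appear again at a second locus nearby, had means of 12.39 and 12.30. SNORA3/SNORA45, inside RPL27A, had a mean of 11.72. Pigs of group CON ran from 11.53 to 12.00, and those of group PIV from 11.52 to 11.73. SNORD46 (11.24), a C/D RNA, SNORD14 (11.21, a single probe) inside HSPA8 and SNORD42 (11.08) inside RPL23A came next, and each of them overlapped between groups. The host genes named here for bright snoRNAs encode ribosomal proteins, a translation initiation factor and a heat shock protein.

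Copies of 1 RNA name differed widely in signal. Of the 18 U13 clusters, 11 lay under 3, and the brightest had a mean of 7.45. The 15 clusters of SNORA70, an H/ACA RNA, spanned 1.72 to 7.04 over 10 chromosomes. The 14 clusters of SNORA11 spanned 1.44 to 8.86, and 9 of the 10 clusters of SNORA19 lay under 3. U3 reached 10.20 in 1 copy and 2.09 in another. Among the C/D RNAs of imprinted regions, the 3 SNORD115 clusters lay between 1.06 and 1.61, and the 3 SNORD116 clusters shared 1 signal with a mean of 4.94. SNORD115 and SNORD116 lie in the Prader-Willi syndrome region and are known from brain. SNORD113/SNORD114 RNAs are known from the imprinted region that holds DLK1 in mammals. The 8 clusters of this name lay between 1.35 and 3.28. They were on 2 chromosomes, and a copy on chromosome 17 lay inside ZMAT4. The 3 U8 clusters, of an RNA needed for the large-subunit ribosomal RNAs, lay between 1.49 and 1.57.

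Between pigs of 1 group, the snoRNA signals had a larger median SD than the other clusters, but not than every RNA class. The median SD within groups was 0.23 over the snoRNA clusters and 0.18 over the other clusters. It was 0.25 over the snRNA clusters, 0.44 over the mitochondrial tRNA clusters and 0.20 over the miRNA clusters. With 1 to 9 probes it was 0.26 over the snoRNA clusters and 0.29 over the other clusters. In every other class of probe number the snoRNA median was the larger. The largest SDs among the snoRNA clusters were those of 5 clusters. SNORD77 at chromosome 9, 108991539 to 108991604, had 4.73 in CON pig K1 and 1.00 to 1.58 in the other pigs of group CON. The cluster snR61/Z1/Z11 on chromosome 6 had a median of 6.25 in group CON, from 5.95 to 8.32, and of 5.96 in group PIV, from 5.39 to 7.83. Its values were above 7.8 in CON pigs K23 and K42 and PIV pig P31 and at or below 6.44 in the other 9 pigs. SNORD70 (from 2.41 to 5.13 in CON and from 4.13 to 5.42 in PIV), a U3 copy on chromosome 12 (from 5.08 to 7.13 and from 5.19 to 6.98) and SNORA15 (from 5.71 to 7.50 and from 5.30 to 7.21) overlapped between groups.

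Between the groups, more snoRNA clusters passed the filter of the study (FC above 1.2 or below -1.2 with an unadjusted p below 0.05, here from limma) than the array as a whole. In all, 39 of 359 passed (10.9%), against 1.82% of all clusters tested. Of these 39, 33 were lower in group PIV (9.19% of the snoRNA clusters against 0.788% of all) and 6 were higher (1.67% against 1.03%). Counting each distinct signal once, 34 passed, 30 lower and 4 higher. With an unadjusted p below 0.05 and no FC threshold, 49 passed (13.6% against 3.63%). No cluster of the array had an adjusted p below 0.05 by limma with Benjamini-Hochberg adjustment (0% of snoRNA clusters and 0% of all), and the smallest adjusted p of a snoRNA cluster was 1.00. The methods' t-test at the same FC and p passed 20 (5.57% against 1.18%), of which 15 were lower (4.18% against 0.508%), and none after Benjamini-Hochberg adjustment.

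Most of the snoRNA clusters lay below 0 also where they did not pass. The log2 FC was negative for 270 of 359 (75.2%, against 47.7% of all clusters tested), and its median was -0.12 against 0.01. Scaling each array to the same median over the snoRNA clusters alone turned the split to 32 higher and 6 lower and the median to 0.060, while the median of all clusters moved to 0.18. With equal medians over all clusters, 38 were lower and 3 were higher, while the split over the whole array went from 262 higher and 200 lower to 194 higher and 266 lower. The counts also rested on single pigs. They fell to 25 without CON pig K1, to 22 without K3 and to 25 without PIV pig P31, and rose to 91 without CON pig K23 and to 59 without PIV pig P10. In each of these the lower clusters outnumbered the higher ones. The bright snoRNA signals moved together from pig to pig, as given below. The clusters are therefore not independent, and the counts are not numbers of separate results.

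**Figure D1:**
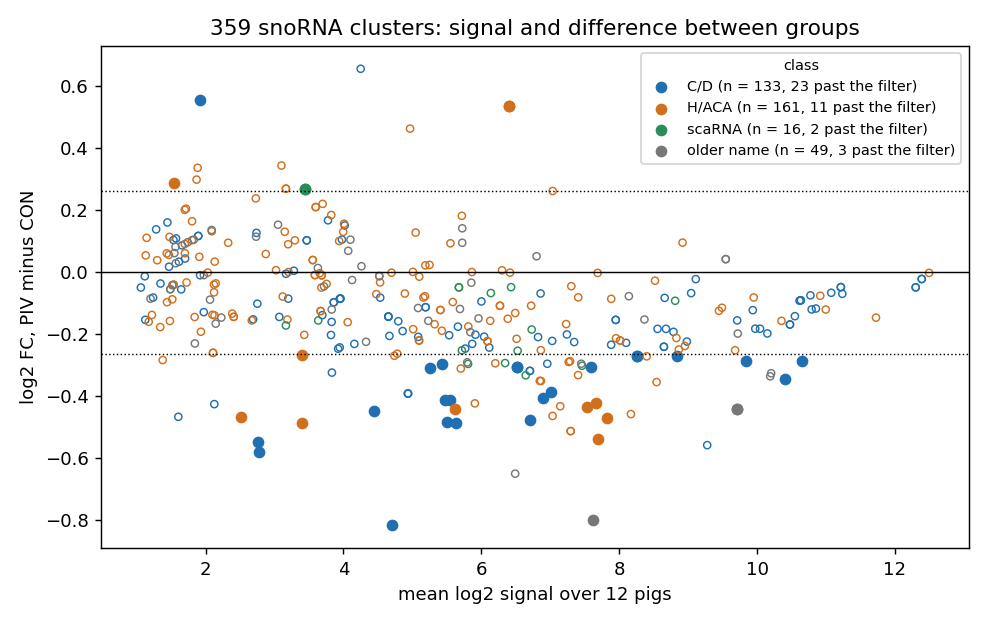
Mean log2 signal over the 12 pigs (horizontal axis) and log2 FC, PIV minus CON (vertical axis), of the 359 snoRNA clusters, coloured by class, with the 39 past the filter filled and dotted lines at FC 1.2 in either direction. Of the filled points, 33 lie below 0, and nearly all points with a signal of 7 and over lie below 0.

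The box C/D RNAs made up most of the lower clusters. Of 133, 23 passed (17.3%), 22 of them lower, and 114 had a negative log2 FC (85.7%). Of the 161 H/ACA RNAs, 11 passed (6.83%), 8 of them lower, and 110 were negative (68.3%). Of the 49 with an older name, 3 passed, all lower and all named U3. Of the 16 scaRNAs, 14 had a negative log2 FC (87.5%), and the median was -0.16. The other 2 passed, both higher, and both of these were copies of SCARNA18 with 1 signal. The difference between C/D and H/ACA was not tested.

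The share that passed was between 9.38% and 14.7% in every class of probe number. It was 14.7% of 34 clusters with 1 to 9 probes, 9.38% of 64 with 10 to 15, 11.1% of 63 with 16 to 20, 11.7% of 77 with 21 to 24 and 9.92% of 121 with 25. Among the clusters that were not snoRNA, the same classes gave 5.89%, 4.26%, 2.12%, 1.46% and 1.02%. By mean signal, 5.68% of the snoRNA clusters passed under 3, 6.82% from 3 to 5, 15.1% from 5 to 7, 18.9% from 7 to 9 and 11.4% at 9 and over. The same bands of the other clusters gave 2.89%, 1.74%, 1.34%, 0.90% and 0.39%. From 7 to 9, 51 of 53 were negative (96.2%, against 51.6% of other clusters in that band), and at 9 and over 42 of 44 were (95.5% against 44.9%). Of the other short RNA classes, 27 of 626 snRNA clusters passed (4.31%), 21 of them higher, and 10 of 229 miRNA clusters passed (4.37%). Of the 18 clusters of mitochondrial tRNAs, 2 passed (11.1%), both lower, and their median log2 FC was -0.16. Of the 238 snoRNA clusters not marked for cross-hybridisation 24 passed (10.1%), 22 of them lower.

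Of the snoRNA clusters past the filter, 2 differed by more than 1.5-fold, and both were lower. SNORD103/SNORD85, a box C/D RNA on chromosome 6 (59775173 to 59775249), had 4.82, 5.08 and 5.62 as the lowest, median and highest value in group CON and 3.52, 4.25 and 4.96 in group PIV. In 5 of 6 pigs of group PIV the signal was lower than in all of group CON. The FC was -1.76 (log2 FC -0.82 ± 0.21, SE, limma p = 0.0013, exact two-sided permutation p = 0.013). Its log2 FC stayed between -0.95 and -0.66 when any 1 pig was left out. The 4 clusters of this RNA name had log2 FC from -0.82 to 0.11, and only 1 passed. A signal shared by the clusters that start at 59799904 and 59813178 had a log2 FC of -0.11. The other cluster beyond 1.5-fold was a U3 copy on chromosome 12 (32939069 to 32939283). Its values were 7.26, 8.0 and 8.76 in group CON and 6.52, 7.09 and 8.50 in group PIV. PIV pig P10 had the 8.50, and the other 5 treated pigs lay below the lowest pig of group CON. The FC was -1.74 (log2 FC -0.80 ± 0.31, limma p = 0.0202, exact permutation p = 0.0584). It missed the filter without K1, K4 or P31, where the log2 FC was -0.66 to -0.65. U3 guides early cleavage of the pre-ribosomal RNA. Another U3 signal, shared by a copy on chromosome 11 and one on chromosome 12, also passed (FC -1.36, exact permutation p = 0.0866). A difference of more than 1.5-fold without passing was found for a cluster of snR61/Z1/Z11 (log2 FC -0.65 ± 0.46, exact permutation p = 0.216) and, with the higher mean in group PIV, for SNORD70 (log2 FC 0.66 ± 0.39, exact permutation p = 0.197), and in both the groups overlapped.

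A single snoRNA cluster had no overlap between groups (0.279%, against 0.158% of all clusters, with 0.063% lower and 0.0945% higher in group PIV). This was SNORD11B on chromosome 15 (99548401 to 99548484), a box C/D RNA that lies with SNORD70 inside NOP58 in human. Its values were 4.57, 4.67 and 4.77 in group CON and 3.65, 4.25 and 4.52 in group PIV. All 6 pigs of group PIV were below all 6 of group CON, and the lowest value was that of P31. The log2 FC was -0.45 ± 0.12 (FC -1.36, limma p = 0.00189), and the exact permutation p of 0.00216 was the smallest that 6 against 6 pigs can give. Every cluster without overlap has this permutation p, and SNORD11B was named for its lack of overlap, so the p adds no support. With 359 snoRNA clusters looked at, 1 without overlap is about the number that chance gives. Without any 1 pig the log2 FC was between -0.51 and -0.33. A second SNORD11B cluster less than 1 kilobase away had a log2 FC of -0.14 and did not pass.

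**Figure D2:**
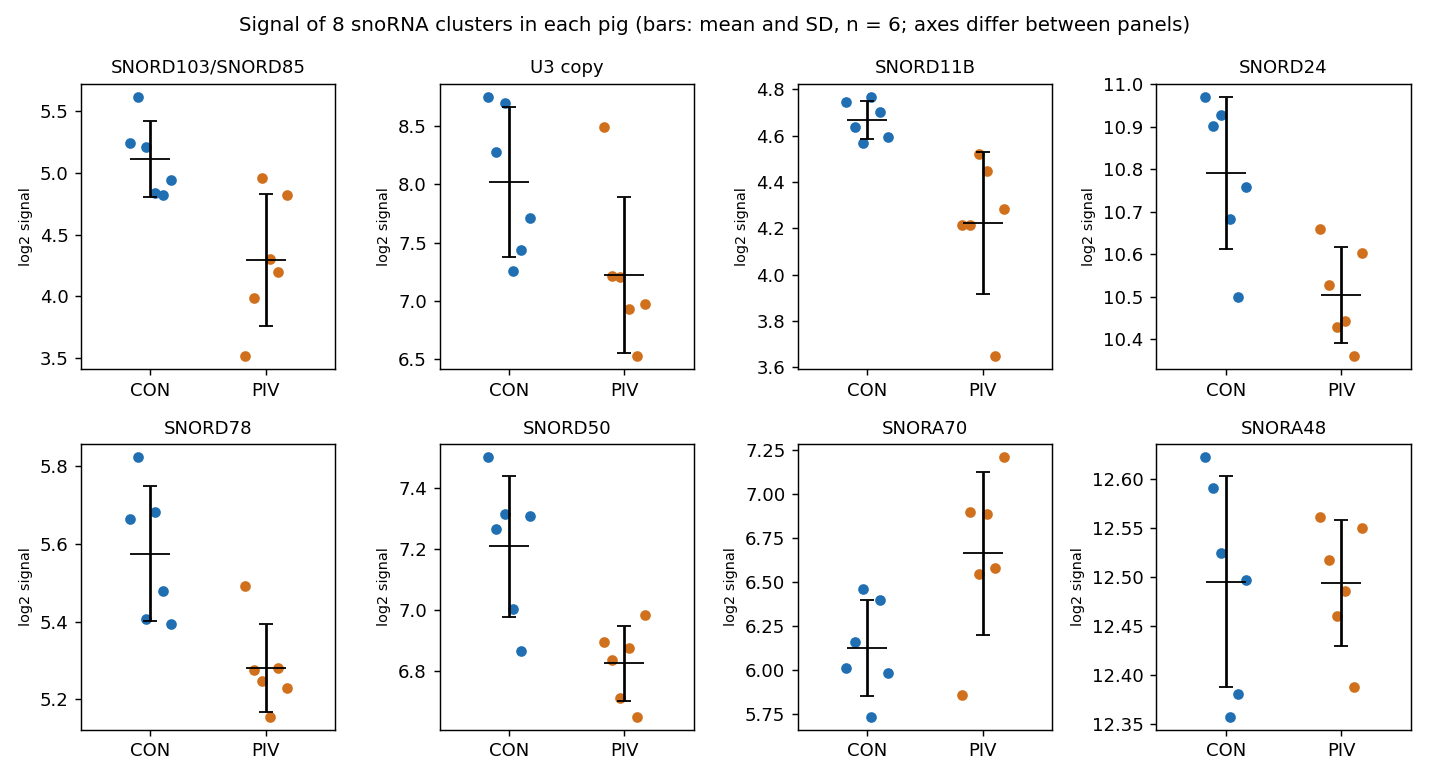
Log2 signal of 8 snoRNA clusters in each pig (points), by group, with the mean and SD (bars, n = 6); the vertical axes differ between panels and do not start at 0. SNORD11B is the panel without overlap, SNORA70 is the panel in which group PIV is higher, and SNORA48 shows no separation.

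The other 8 of the 10 lowest differences past the filter lay between -0.58 and -0.47 on the log2 scale. The C/D RNAs among them were SNORD19B inside GNL3 (3.04 and 2.50 as the medians of group CON and group PIV, log2 FC -0.58), SNORD22 (3.08 and 2.35, -0.55), SNORD102 inside RPL21 (5.89 and 5.45, -0.49), SNORD12/SNORD106 (5.77 and 5.25, -0.48) and SNORD81 (6.95 and 6.44, -0.48). All of these kept the filter whichever pig was left out, and in each the groups overlapped in part. SNORD19B and SNORD22 lie at the dim end of the array. The H/ACA RNAs were SNORA2/SNORA34 inside KANSL2 (8.01 and 7.44, -0.54), SNORA19 inside EIF3A (3.68 and 3.15, -0.49) and SNORA68 (8.21 and 7.54, -0.47). SNORA19 kept the filter without any pig. SNORA2/SNORA34 (exact permutation p = 0.0909) missed it without K1, K3, K4, K42, P12, P30 or P50, with log2 FC -0.54 to -0.39. SNORA68 (exact permutation p = 0.106) missed it without K1, K3, K4, K42, P12, P29, P30, P31 or P50, with log2 FC -0.49 to -0.38. Differences as low were also found in SNORD17 (-0.56, exact permutation p = 0.193) and in the signal that 2 SNORA55 clusters share (-0.51, exact permutation p = 0.182), which did not pass.

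All 6 clusters that were higher in group PIV were dim or had copies. SNORA70 on chromosome 15 had 1 signal for 2 loci, with 5.74, 6.09 and 6.46 in group CON and 5.86, 6.73 and 7.21 in group PIV. In 5 of 6 treated pigs it was higher than in any pig of group CON (log2 FC 0.54 ± 0.18, FC 1.45, limma p = 0.0103, exact permutation p = 0.0433). Of the 15 SNORA70 clusters, 13 had a positive log2 FC, with differences between -0.17 and 0.54. SNORD113/SNORD114 on chromosome 7 (133941232 to 133941304, 8 probes) had 1.09, 1.64 and 2.03 in group CON and 1.49, 2.32 and 2.66 in group PIV, all at the dim end (log2 FC 0.55 ± 0.19, exact permutation p = 0.0368). The signal of SCARNA18, for 2 loci on chromosome 8, was 3.36 and 3.57 as medians (log2 FC 0.27 ± 0.10, exact permutation p = 0.0325), and it missed the filter without K1, K22 or P30, with log2 FC 0.20 to 0.23. A SNORA19 cluster on chromosome 4 had medians of 1.36 and 1.76 (log2 FC 0.29 ± 0.13, exact permutation p = 0.0628), and it missed the filter without K4, K22, K42, P10, P12, P29 or P30, with log2 FC 0.23 to 0.28. Another SNORA19 cluster, on chromosome 14, was the one that was lower.

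The locus with the most snoRNA clusters held 8 box C/D RNAs within chromosome 9, 108990370 to 108993850, on the plus strand. It was chosen for the number of its clusters. In order they were SNORD74, SNORD24, SNORD77, SNORD78, SNORD79, a second SNORD77, SNORD47 and SNORD81. In human most of these lie in introns of GAS5, a non-coding host gene, for which no cluster was named on this array. Means ran from 1.61 for the first SNORD77 to 10.65 for SNORD24. All 8 had a negative log2 FC, between -0.48 and -0.20, and 3 passed. For the first SNORD77, which was dim, the negative value rested on CON pig K1 alone. Its signal there was 4.73, against 1.00 to 1.58 in the other pigs of group CON. SNORD24 had 10.50, 10.83 and 10.97 in group CON and 10.36, 10.49 and 10.66 in group PIV (log2 FC -0.29 ± 0.09, limma p = 0.0069, exact permutation p = 0.0152). SNORD78 had 5.39, 5.57 and 5.82 in group CON and 5.16, 5.26 and 5.49 in group PIV, and 5 treated pigs lay below the lowest pig of group CON (log2 FC -0.29 ± 0.09, limma p = 0.00523, exact permutation p = 0.00866). SNORD81 was the third, and its values of 6.44 to 7.36 (CON) and 6.21 to 6.80 (PIV) overlapped. Across the 12 pigs the clusters of this locus correlated with a median r of 0.65, from 0.27 to 0.95.

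A similar sign was seen at other loci with several members. All 5 clusters inside NOP56, which encodes a box C/D core protein, were negative (from -0.35 to -0.07) and none passed. The 5 inside RPL4 were negative and 2 passed, SNORD16 (exact permutation p = 0.0693) and SNORD18 (0.0801). The 5 inside EIF4A2 were negative and SNORD2 passed (exact permutation p = 0.026). The 3 SNORD45 clusters inside RABGGTB were negative and 2 passed (exact permutation p = 0.0628 and 0.0996). SNORD50 on chromosome 1, outside the rule for named clusters and chosen after its values were seen, had 6.87, 7.29 and 7.50 in group CON and 6.65, 6.85 and 6.98 in group PIV, with 3 treated pigs under all pigs of group CON (log2 FC -0.39 ± 0.11, limma p = 0.0021, exact permutation p = 0.0108). SNORD24 and SNORD78 were chosen in the same way.

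The bright snoRNA clusters moved together from pig to pig, within groups as well as between them. A total of 85 distinct signals had a mean of 7 or over, a limit chosen with the values known. Relative to each cluster's own mean, their mean deviation in group CON was 0.31 in K1, 0.36 in K3, 0.30 in K4, -0.15 in K22, -0.33 in K23 and 0.11 in K42. In group PIV it was 0.16 in P10, -0.15 in P12, -0.19 in P29, -0.17 in P30, -0.35 in P31 and 0.07 in P50. CON pigs K22 and K23 were thus as low as the low pigs of group PIV, and P10 and P50 were above 0, so that the groups overlapped. The groups differed by -0.21, and the SD between pigs was 0.28 in group CON and 0.19 in group PIV. In K4 all 85 clusters were above their own mean, in K3 82 and in K1 81, while in K23 and in P31 only 2 were.

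**Figure D3:**
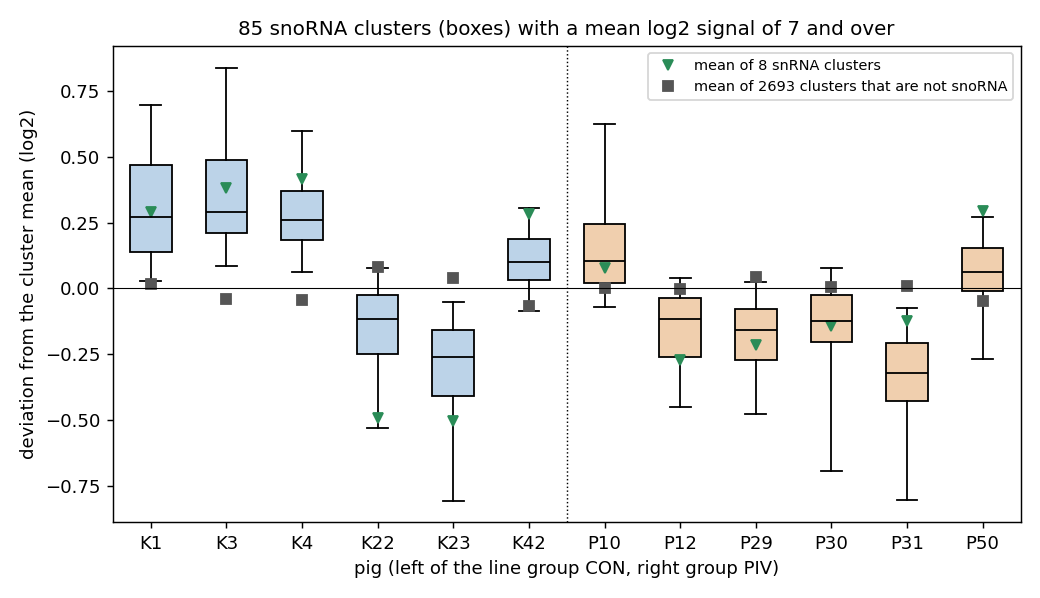
Deviation of each cluster from its own mean over 12 pigs (vertical axis, log2) in each pig (horizontal axis), as boxes over the 85 distinct snoRNA signals with a mean of 7 and over (line at the median, box over the middle of the values, whiskers from the 5th to the 95th percentile), with the means of the bright snRNA clusters (triangles) and of the bright clusters that are not snoRNA (squares). The boxes of K1, K3 and K4 lie above 0 and those of K23 and P31 below it, while the squares stay between -0.07 and 0.08.

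The pairwise correlation over the 12 pigs grew with the signal. Over all 319 distinct signals the median Pearson r was 0.18. It was 0.03 under 3, 0.02 from 3 to 5, 0.38 from 5 to 7, 0.71 from 7 to 9 and 0.79 at 9 and over. The other clusters of the array had medians between 0.01 and 0.10 in the same bands, and 0.08 at 7 and over, where the snoRNA median was 0.74 and stayed between 0.71 and 0.76 without any 1 pig. Computed from deviations from the group means, so that the group difference was taken out, the snoRNA median at 7 and over was 0.73. Box C/D signals at 7 and over correlated with a median of 0.80 (39 signals), H/ACA signals with 0.65 (35 signals) and C/D with H/ACA signals with 0.70. These correlations are descriptions, since all clusters share the same 12 arrays and their scaling.

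**Figure D4:**
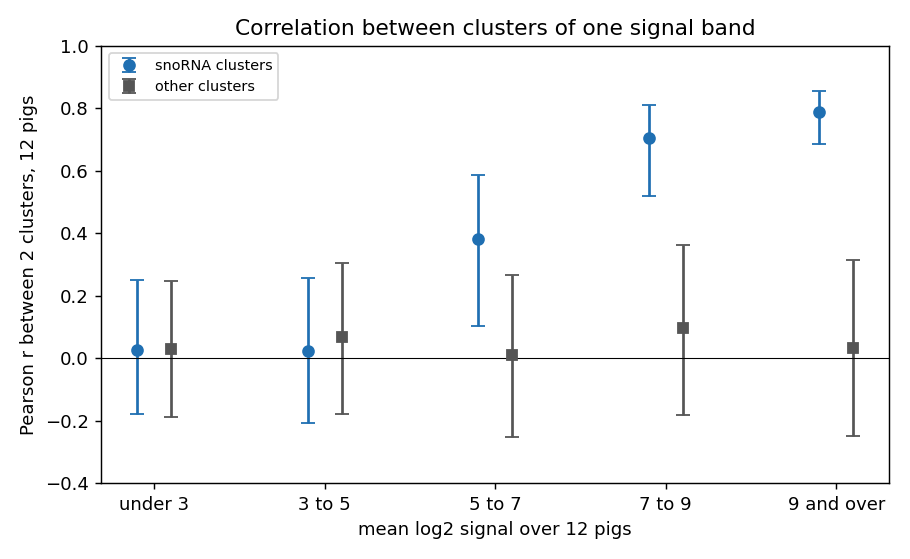
Median Pearson r between 2 clusters over the 12 pigs (points) with the middle 50% of pairs (bars), by band of mean log2 signal, for snoRNA clusters (circles) and other clusters (squares). The snoRNA median is near 0 below 5 and reaches 0.79 at 9 and over, while the other clusters stay at 0.10 or less.

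Among the bright signals, pairs from 1 locus were little closer than pairs from different loci. Pairs within 1 locus had a median r of 0.81 at 7 and over (30 pairs), and pairs from different loci had 0.74. Over all signals the medians were 0.43 and 0.18. The closest pairs lay on different chromosomes, apart from a pair of U3 copies on chromosome 12 whose probes may overlap (r = 0.999). They were Z17 with SNORD15 (r = 0.984), SCARNA11 with SNORD34 (r = 0.981), SNORD69 with SNORD53/SNORD92 (r = 0.973) and SCARNA6 with SNORA46 (r = 0.969), in which scaRNAs pair with C/D and H/ACA RNAs. Of the 85 signals, 79 correlated above 0.5 with the mean of the other bright ones. The exception below 0 was a SNORA70 cluster on chromosome 6 (r = -0.07), of the RNA name whose clusters were mostly higher in group PIV.

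The host transcripts did not follow this pattern. For 182 clusters the array held a transcript on the same strand that spans the snoRNA, giving 160 distinct pairs. The median r between snoRNA and host over the 12 pigs was 0.01. For the 62 at 7 and over it was -0.08, while the same 62 had a median r of 0.87 with the mean of the other bright snoRNAs. Only 1 of the 62, the SNORA70 cluster on chromosome 6, correlated more with its host. Among the lowest were SNORD71 with AP1G1 (r = -0.65) and SNORA38 with PRRC2A (r = -0.64). Of 104 host transcripts 1 passed the filter (of all clusters tested 1.82% did), CENPP, the host of SNORA84, with a log2 FC of -0.50. SNORA84 itself passed with -0.44 (exact permutation p = 0.0671). The median log2 FC of the hosts was -0.05, against -0.16 for their snoRNAs.

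**Figure D5:**
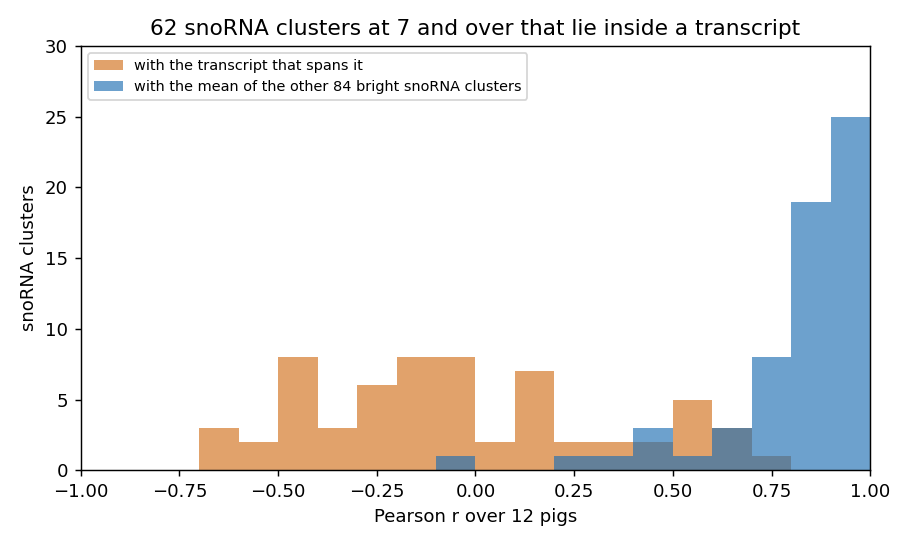
Number of snoRNA clusters (vertical axis) by Pearson r over 12 pigs (horizontal axis) for the 62 distinct signals at 7 and over that lie inside a transcript, with that transcript (orange) and with the mean of the other 84 bright snoRNA signals (blue). The first set centres near 0 and the second on 0.87.

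None of the protein lists of the snoRNA pathway held a gene past the filter. Of the box C/D core, 3 of 4 genes were measured, and NOP56 (log2 FC -0.17, exact permutation p = 0.139), the methyltransferase FBL (-0.12, p = 0.201) and SNU13 (-0.03, p = 0.727) did not pass. Of the H/ACA core, all 4 were measured, of which 2 were negative, NHP2 (-0.18, exact permutation p = 0.0606) and the pseudouridine synthase DKC1 (-0.04, p = 0.491), and the other two were NOP10 (0.04, p = 0.584) and GAR1 (0.01, p = 0.948). Of the assembly and transport factors, 11 of 15 were measured, all with a negative log2 FC, and ZNHIT3 was lowest in p (-0.25, exact permutation p = 0.0433) with an FC of -1.19, inside the threshold. Of the RNA polymerase I and ribosomal RNA processing genes 10 of 11 were measured and 9 were negative. Among them were NPM1 at -0.18 (exact permutation p = 0.0671) and UBTF at -0.10 (exact permutation p = 0.0303, limma p = 0.164). Of the nuclear RNA decay genes 7 of 7 were measured and 6 were negative. The medians of these 5 lists lay between -0.12 and -0.02. None of the 10 non-coding hosts on the list was named on the array.

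Other RNA classes were set beside the bright snoRNAs. Over the 12 pigs, the mean of 8 bright snRNA clusters followed the mean of all snoRNA signals (r = 0.86), and the mean of the 2693 other bright clusters ran against it (r = -0.56). For the bright snRNAs the groups differed by -0.13. The mean of all 566 distinct snRNA signals had r = 0.64 with the snoRNA mean and a group difference of 0.01, the mean of the 18 mitochondrial tRNA clusters r = 0.56 and -0.12, and the mean of 8 bright miRNA clusters r = 0.36 and 0.09. The mean level of the 6 hepatocyte markers (11.97 to 12.15 in CON, 12.08 to 12.18 in PIV, 0 of 6 past the filter) had r = -0.51 with the snoRNA mean, the 4 endothelial markers -0.40 and the other marker lists -0.33 to 0.06. Of the 4 B and plasma cell markers (mean level 4.63 to 4.88 in CON, 4.34 to 4.77 in PIV) and of all cell type markers measured, JCHAIN alone passed, lower in group PIV (log2 FC -0.47, exact permutation p = 0.00433). The part of these lists and RNA classes in the snoRNA result was not tested.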

How the data were processed

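The authors extracted liver RNA of each pig with TRIzol, hybridised it to 1 array and computed RMA in Affymetrix Expression Console 1.4, as the submitters' processing notes give it. Log2 signals per transcript cluster were deposited, background-corrected, scaled across arrays and annotated with NetAffx. A second deposited table holds the same log2 signals rounded, with differences of at most 0.005. The deposited group comparison columns (fold changes and p-values of the authors) were not used.

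Here, snoRNA clusters were taken by the Ensembl biotype in the annotation, and box classes from the RNA name. Clusters of 1 strand within 10000 bases of each other formed a locus. Groups were compared by limma's moderated test (version 3.58.1, R 4.3.3) without covariates over 25385 clusters, with Benjamini-Hochberg adjustment over all of them. Permutation tests were exact over 924 assignments and two-sided. The fit was tried on simulated signals with noise independent between clusters. It passed 91 of 100 clusters changed by 0.4 on the log2 scale, all 100 changed by 0.8, and 560 unchanged ones. The simulated clusters did not move together, so this cannot check the counts of snoRNA clusters. Settings tried beside this were array weights, a trend of the variance, the methods' t-test, a signal minimum of 5 in 6 pigs, other scalings, the rounded table, other FC thresholds, other member rules and leaving out each pig. Named are the 10 brightest, the 10 largest differences in each direction past the filter, clusters without overlap, the 5 with the largest SD, the 5 closest pairs, their hosts and up to 4 genes per list. Members and lists were chosen with earlier results of these data known. The files give no detection call, so a dim signal was not called absent, and the number of arrays limits the precision. The pigs were kept in pairs, and the pens are not in the labels. Each array stands for a separate pig.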

Additional observations from a re-analysis of the deposited data

Results flagged for a closer look

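In 78 groups looked at (39 named signals and mean snoRNA levels, each in group CON and in group PIV), 5 had 1 pig far from the others. For signals not chosen by their spread, chance gives about 5% of groups. That rate does not apply here, because some signals were named for their large SD. Among the flagged ones these were SNORD77, snR61/Z1/Z11 and the first U3 copy below. A U3 copy on chromosome 12 had 7.13 in CON pig K3, against 5.08 to 5.70 in the other pigs of its group. The U3 copy that was more than 1.5-fold lower had 8.50 in PIV pig P10, against 6.52 to 7.22. SNORD11B had 3.65 in PIV pig P31, against 4.21 to 4.52. The cluster snR61/Z1/Z11 had 7.83 in PIV pig P31, against 5.39 to 6.26. The first SNORD77 of the chromosome 9 locus had 4.73 in CON pig K1, against 1.00 to 1.58.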

How the results depend on the processing

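Of the 359 snoRNA clusters, 39 passed the filter, and the count was 20 with the methods' t-test, 2 at an FC above 1.5, 24 of 238 without possible cross-hybridisation and, as an alternative chosen after seeing the data, 15 of 97 at a mean signal of 7 or over, all 15 lower. Leaving out 1 pig gave 22 (without K3) to 91 (without K23). The count stayed within 1.5 times of 39 with a variance trend, array weights, a signal minimum, equal medians, quantile scaling, the rounded table, no FC threshold, at least 10 probes, each signal once and the 2 pig snoRNA sequences without the biotype entry (the last 2 also chosen after seeing the data). With equal medians over the snoRNA clusters alone it was 38, but only 12 of the 39 were among them, 32 were higher and the median log2 FC turned from -0.12 to 0.060. Over the whole array, 462 clusters passed. The count was 300 with the methods' t-test, 161 with the signal minimum, 3176 with equal medians over the snoRNA clusters, 921 without an FC threshold, 25 at an FC above 1.5 and 427 to 705 without 1 pig. No setting gave a snoRNA cluster with an adjusted p below 0.05, by limma or by the methods' t-test, while in the reported limma fit 49 had an unadjusted p below 0.05. The median log2 FC without 1 pig lay between -0.15 and -0.09, and the median correlation at 7 and over between 0.71 and 0.76. Of 365 values of the 17 named clusters past the filter under the alternatives, 299 kept the filter, 66 missed it with the same sign and 0 reversed. The analysis was not paired, because the groups held different pigs and the labels link no pig of group CON to a pig of group PIV. The small number of arrays and probes per RNA, shared probes of related copies and dim signals limit what these values can show.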

Other observations

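The array also held 2 pig snoRNA sequences without the Ensembl biotype, which were no members. pSNORD50B on chromosome 1 (57077368 to 57077441), beside the SNORD50 cluster that passed the filter, had a mean of 6.14 over CON pigs and 5.75 over PIV pigs (log2 FC -0.40), and pSNORD8-a on chromosome 7 had 9.04 and 9.11 (log2 FC 0.08). Neither passed.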
